A study of Mus musculus with 6 samples.

Results

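Pulmonary surfactant is the film of lipid and protein that lowers surface tension in the alveoli, and it is made, stored and recycled by type 2 alveolar cells. These cells load lipid and the hydrophobic surfactant proteins into lamellar bodies, secrete them into the airspace, and give rise to type 1 alveolar cells, the thin cells through which gas is exchanged. The 10 genes described here were chosen by symbol as surfactant and type 2 alveolar genes, namely Sftpa1, Sftpb, Sftpc, Sftpd, Abca3, Lamp3, Napsa, Slc34a2, Lpcat1 and Etv5. They are 10 of the 47069 genes in the table, and all 10 were among the 17037 genes that passed the filter on low counts.

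RNA was sequenced from whole lungs of adult mice collected at ZT10, which is 10 h after lights on in a cycle of equal light and dark phases, with 1 library per mouse. The WT group was 3 C57BL/6J mice (WT4, WT5 and WT6), and the KO group was 3 mice (KO4, KO5 and KO6) of the B6.129S7-Zpbp2tmZuk/Mmjax strain on the C57BL/6J background, which lacks exons 1 to 3 of Zpbp2 in every cell. Zpbp2 encodes zona pellucida binding protein 2, best known from sperm, and it lies in a region whose human counterpart carries asthma-associated variants. WT mice were born in the colony that housed the KO strain, and the labels give neither the litter nor the sex of the sequenced mice.

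Each library held between 19981428 and 46796908 counts, the most in KO5, and 3 counts, taken as the floor of detection, equal between 0.0629 and 0.148 CPM, the counts per 1000000 counts of the library. Zpbp2 was counted once in WT4, 2 times each in WT5 and WT6, and 0 times in each KO library, so at this depth both groups were at or under the floor. Xist, a gene expressed from the inactive X chromosome, was counted at 715 to 752 CPM in WT and 821 to 994 CPM in KO. Counts summed over 4 Y chromosome genes were 0, 1 and 0 in WT4, WT5 and WT6 and 0, 24 and 0 in KO4, KO5 and KO6. By these genes all 6 libraries read as female. Of the 17037 genes tested, 1089 (6.39%) had an adjusted p-value of at most 0.05 by the quasi-likelihood test of edgeR. The median log2 fold change over all genes tested was 0.00295, and 49.4% of them lay below 0. Values are CPM on library sizes scaled by the TMM method, log2 fold changes are KO against WT, and p-values measure the spread between these mice.

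Together the 10 genes took 2.23 to 2.44% of all counts in WT mice and 1.84 to 2.30% in KO mice. Of the 10, 8 had a point estimate lower in KO and 2 a higher one, with a median log2 fold change of -0.13. None passed an adjusted p-value of 0.05 by edgeR, against 6.39% of all genes tested, and so none met the study's further threshold of an absolute log2 fold change of 1.5, which 0.64% of genes met. At an unadjusted p of 0.05 or less, 2 of 10 (Sftpa1 and Sftpd) were lower in KO and 0 were higher, against 11.6% and 13.9% of all genes. The same pair were the 2 of 10 genes in which every KO mouse lay below every WT mouse, a pattern seen in 15.6% of all genes tested (32.6% with the opposite direction included). DESeq2 called this pair lower (adjusted p = 0.0133 for Sftpa1 and 0.0107 for Sftpd), where it called 4.65% of all its tested genes lower, and limma voom called 0 of the 10 genes lower against 2.47%. Neither tool called a gene of the 10 higher, against 6.34% of genes by DESeq2 and 3.15% by limma voom.

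**Figure D1:**
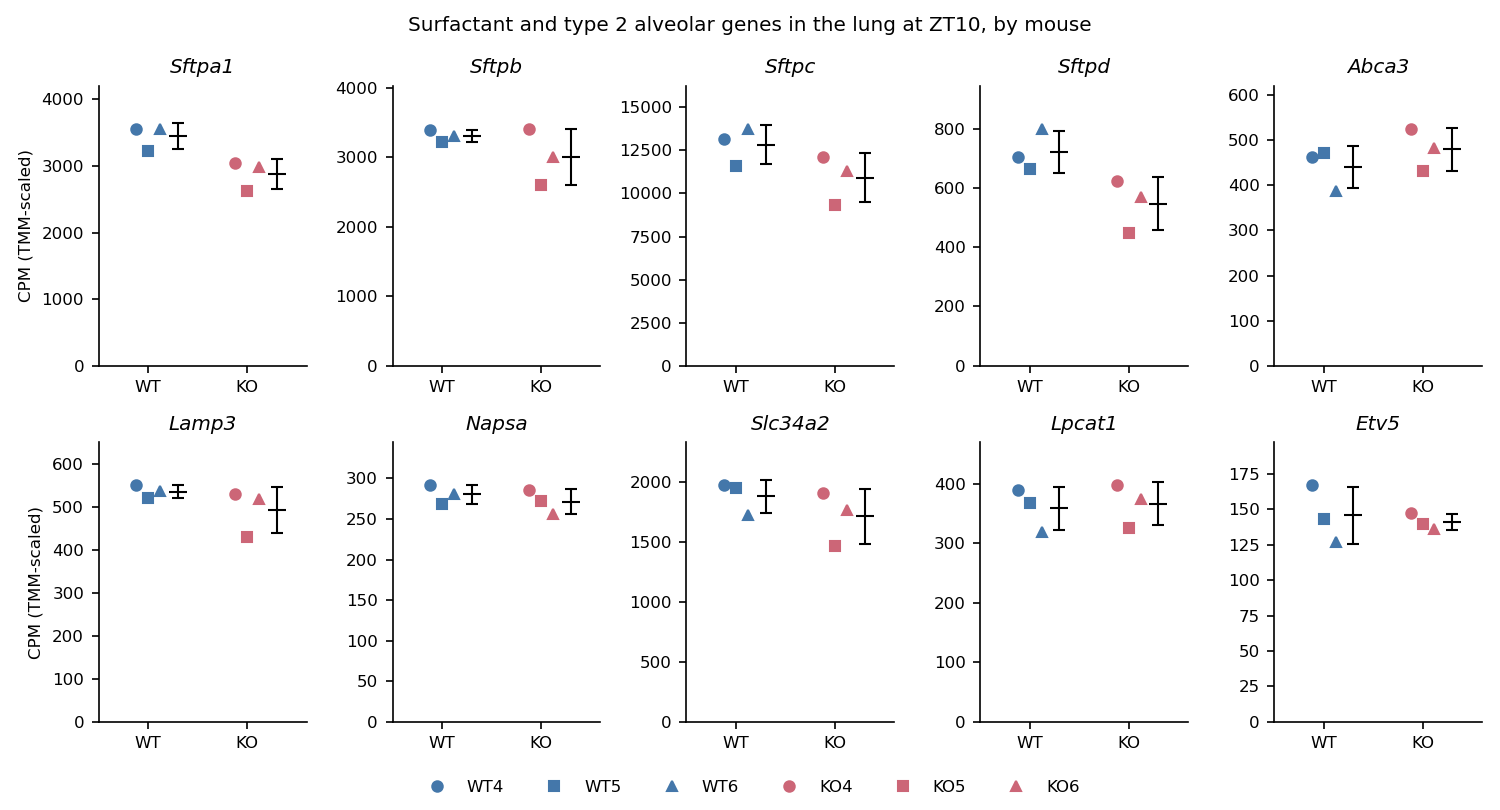
Levels of the 10 surfactant and type 2 alveolar genes in each mouse, in CPM on TMM-scaled library sizes on axes that start at 0, with bars for the mean ± SD of 3 mice. Every KO mouse lies below every WT mouse for Sftpa1 and Sftpd, the groups overlap for the other 8 genes, and KO5 is the lowest mouse for 6 genes.

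Surfactant proteins A and D are collectins, soluble lectins that bind microbes and help macrophages take them up, and Sftpa1 and Sftpd encode them. In the GRCm38 build, Sftpa1 (ENSMUSG00000021789) lies at chr14:41131782-41136452 on the plus strand, and Sftpd (ENSMUSG00000021795) at chr14:41172214-41185149 on the minus strand. The ends of the neighbouring pair are 35.8 kb apart, with 2 annotated genes between them, the pseudogene Gm7920 and the mannose-binding lectin gene Mbl1. Mbl1, named for its position, had 27 to 70 counts per mouse and a log2 fold change of -0.44 (adjusted p = 0.256, edgeR).

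Sftpa1 was counted at 3556, 3225 and 3560 CPM in WT4, WT5 and WT6 and at 3038, 2626 and 2981 CPM in KO4, KO5 and KO6. All KO mice were below all WT mice, with KO5 the lowest. The means were 3447 ± 192 CPM in WT and 2882 ± 223 CPM in KO (SD, n = 3 each). The log2 fold change was -0.26 (SE 0.0852, 95% interval -0.46 to -0.06), a difference of -16.4%, with an adjusted p of 0.116 by edgeR. An exact two-sided permutation test gave p = 0.1, the smallest that 3 mice against 3 allow.

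Sftpd had the lowest log2 fold change of the 10 genes. Its levels were 705, 663 and 801 CPM in WT4, WT5 and WT6, beside 623, 449 and 569 CPM in KO4, KO5 and KO6. The groups did not overlap, with KO4 the nearest to the WT mice. Mean levels were 723 ± 70.4 CPM in WT and 547 ± 88.8 CPM in KO (SD, n = 3 each). The log2 fold change of -0.40 (SE 0.129, 95% interval -0.71 to -0.10) is a difference of -24.4%, with an adjusted p of 0.110 by edgeR and an exact permutation p of 0.1. KO5 was the lowest here too, and without it the log2 fold change of Sftpd was -0.28 and that of Sftpa1 -0.20.

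Surfactant proteins B and C are small hydrophobic peptides that spread and stabilise the lipid film, and Sftpb is needed for lamellar bodies to form. Sftpc (ENSMUSG00000022097, chr14:70520949-70524081, minus strand) is the classical marker of type 2 cells and had the highest counts of the 10 genes. WT4, WT5 and WT6 had 13163, 11579 and 13765 CPM of Sftpc, and KO4, KO5 and KO6 had 12146.5, 9327 and 11294 CPM. KO4 lay above WT5, so the groups overlapped. Its log2 fold change was -0.23 (SE 0.125, 95% interval -0.53 to 0.06, adjusted p = 0.291 by edgeR) and was -0.13 without KO5.

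For Sftpb (ENSMUSG00000056370, chr6:72304610-72314371, plus strand) the WT mice were close together at 3392, 3219 and 3312 CPM. The KO mice spread from 2607 CPM in KO5 through 3003 CPM in KO6 to 3413 CPM in KO4, which was the highest of all 6 mice. Sftpb had a log2 fold change of -0.14 (SE 0.104, 95% interval -0.38 to 0.11, adjusted p = 0.457 by edgeR). Leaving out KO5, the one KO mouse well below the WT mice, gave -0.05.

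The promoters of Sftpa1 and Sftpb are shown because they hold motifs of lung epithelial transcription, and those of Abca3 and Lpcat1 because these were the 2 genes with a point estimate above 0. Each line gives the 250 bases before the RefSeq start of the gene in GRCm38.p6, 5′ to 3′ on the plus strand, at chr14:41131538-41131787 for Sftpa1, chr6:72304360-72304609 for Sftpb, chr17:24351773-24352022 for Abca3 and chr13:73466981-73467230 for Lpcat1. Capitals mark matches, on either strand, to CTCAAG (the core bound by NKX2-1), TATAA (the TATA box), AGGTCA and CACGTG (the E-box of clock and MYC factors). AGGTCA, read as TGACCT on the other strand, is a core within the sites of REV-ERB and ROR receptors. It is not the whole site, and the bases that flank it were not matched.
Sftpa1: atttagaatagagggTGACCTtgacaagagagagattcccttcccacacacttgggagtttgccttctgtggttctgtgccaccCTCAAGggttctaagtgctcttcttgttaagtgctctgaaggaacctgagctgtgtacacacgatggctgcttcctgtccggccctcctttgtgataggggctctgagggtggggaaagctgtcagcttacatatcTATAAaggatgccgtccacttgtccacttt
Sftpb: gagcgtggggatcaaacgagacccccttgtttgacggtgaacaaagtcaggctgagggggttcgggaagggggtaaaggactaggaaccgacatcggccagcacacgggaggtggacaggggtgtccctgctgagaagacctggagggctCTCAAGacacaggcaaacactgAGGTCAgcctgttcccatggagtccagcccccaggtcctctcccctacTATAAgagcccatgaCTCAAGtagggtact
Abca3: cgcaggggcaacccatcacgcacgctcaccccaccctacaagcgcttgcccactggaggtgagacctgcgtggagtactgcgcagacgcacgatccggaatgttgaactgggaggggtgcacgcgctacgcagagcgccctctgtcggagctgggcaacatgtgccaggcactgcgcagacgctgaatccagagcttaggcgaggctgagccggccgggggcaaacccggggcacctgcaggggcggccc
Lpcat1: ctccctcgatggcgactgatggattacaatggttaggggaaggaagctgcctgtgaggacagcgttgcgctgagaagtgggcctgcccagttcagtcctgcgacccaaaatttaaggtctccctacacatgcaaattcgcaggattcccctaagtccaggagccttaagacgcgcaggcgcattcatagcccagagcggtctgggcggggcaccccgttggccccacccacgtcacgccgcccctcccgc

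Sftpb held 2 CTCAAG matches, at 100 to 95 and at 15 to 10 bases before the start, a TATAA match at 30 to 26 bases and an AGGTCA match at 78 to 73 bases. Sftpa1 held CTCAAG at 166 to 161 bases, TATAA again at 30 to 26 bases, and AGGTCA on the minus strand at 235 to 230 bases, and none of these matches overlapped another. Abca3 and Lpcat1 held none of the 4 motifs, nor did the windows of Slc34a2, Lamp3 and Etv5. RefSeq windows were matched for 7 of the 10 genes, and Sftpc, Sftpd and Napsa were not among them. Over all 32851 windows of 250 bases, 13.3% held CTCAAG, 22.8% TATAA, 14.0% AGGTCA and 6.02% CACGTG. The GC content of the window was 50% in Sftpa1, 58.4% in Sftpb, 60.8% in Lpcat1 and 67.6% in Abca3, with a median of 52.4% over all windows.

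Abca3, Lamp3, Napsa, Slc34a2 and Lpcat1 serve the lamellar body, its proteins and the handling of surfactant lipid and phosphate. Abca3 (ENSMUSG00000024130, chr17:24351950-24410201, plus strand) encodes the transporter that pumps phospholipid into lamellar bodies. It was counted at 463, 472 and 388 CPM in WT, beside 526, 432 and 482 CPM in KO. WT6 was the lowest mouse and KO4 the highest, and the groups overlapped. Abca3 had a log2 fold change of 0.12 (SE 0.102, 95% interval -0.12 to 0.36, adjusted p = 0.505 by edgeR), which was 0.0346 without WT6 and 0.0486 without KO4.

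Lpcat1 (ENSMUSG00000021608, chr13:73467197-73516422, plus strand) encodes the acyltransferase that makes dipalmitoyl phosphatidylcholine, the main surfactant lipid. Its levels were 389, 368 and 318 CPM in WT4, WT5 and WT6 and 398, 326 and 375 CPM in KO4, KO5 and KO6. As for Abca3, WT6 was lowest and KO4 highest. The log2 fold change was 0.03 (SE 0.101, 95% interval -0.21 to 0.27, adjusted p = 0.887 by edgeR), and it turned to -0.05 without WT6 and to -0.03 without KO4.

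Lamp3 (ENSMUSG00000041247, chr16:19653378-19706375, minus strand), a membrane protein of lamellar bodies, had 552, 520.1 and 537 CPM in WT and 531, 431 and 518 CPM in KO. KO5 stood well below the rest, and KO4 lay within the WT range. Slc34a2 (ENSMUSG00000029188, chr5:53038081-53071664, plus strand), the phosphate carrier of the type 2 cell's airspace side, had 1975, 1947 and 1723 CPM in WT and 1911, 1464 and 1769.7 CPM in KO. Here KO4 and KO6 lay within the WT range and KO5 below it. The log2 fold changes were -0.12 for Lamp3 (SE 0.0866, 95% interval -0.32 to 0.08, adjusted p = 0.433) and -0.13 for Slc34a2 (SE 0.111, 95% interval -0.40 to 0.13, adjusted p = 0.498), both by edgeR. Without KO5 these were -0.0347 and -0.0355.

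Napsa (ENSMUSG00000002204, chr7:44572380-44586862, plus strand) encodes napsin A, an aspartic protease that trims the precursor of surfactant protein B. It was counted at 292, 268 and 281 CPM in WT and 286, 272 and 256 CPM in KO. The groups overlapped and the lowest mouse was KO6, not KO5. The log2 fold change was -0.05 (SE 0.0621), and its 95% interval of -0.19 to 0.10 was the narrowest of the 10 genes (adjusted p = 0.680, edgeR). Leaving out KO6 gave -0.00725 and leaving out WT4 gave -0.0189. Exons of Napsa and Abca3 overlap genes on the opposite strand, Gm15396 by 502 bases and D330041H03Rik by 914 bases, and since the strand setting of the counting is not given in the sources used here, their counts are uncertain to that extent.

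Etv5 (ENSMUSG00000013089, chr16:22381309-22439719, minus strand) encodes an ETS transcription factor that acts downstream of FGF signalling and maintains type 2 cell identity. Its levels were 167, 143 and 127 CPM in WT4, WT5 and WT6 and 147, 139.7 and 136 CPM in KO4, KO5 and KO6. The KO mice lay inside the range of the WT mice, whose SD was 20.1 CPM against 5.83 CPM in KO (n = 3 each). The log2 fold change was -0.05 (SE 0.0985, 95% interval -0.28 to 0.18, adjusted p = 0.808 by edgeR), and 0.06 without WT4.

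**Figure D2:**
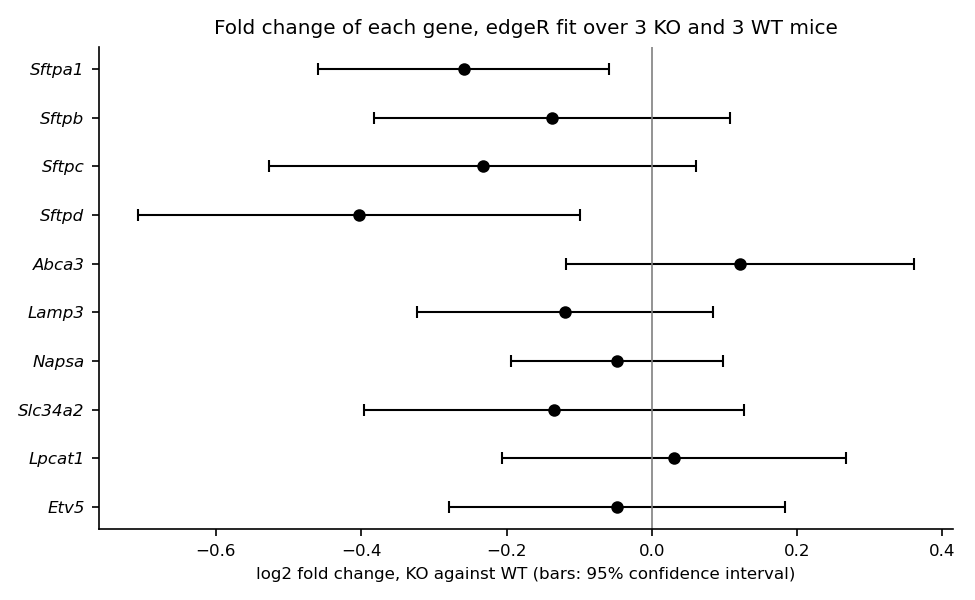
Log2 fold change of each of the 10 genes, KO against WT, in the edgeR fit of 3 KO and 3 WT mice, with bars for the 95% interval. The intervals of Sftpa1 (-0.46 to -0.06) and Sftpd (-0.71 to -0.10) lie below 0 before adjustment for the number of genes tested, and those of the other 8 genes include 0.

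Per kb of exon, a scale on which genes of different length can be compared, the order of the WT levels was Sftpc, Sftpb, Sftpa1, Slc34a2, Sftpd, Lamp3, Napsa, Lpcat1, Abca3 and Etv5. Sftpc stood at 12414 ± 1092 CPM per kb (SD, n = 3), above Sftpb at 1681 ± 43.9 and Sftpa1 at 1205 ± 67.1 CPM per kb. Slc34a2 was at 375 ± 27.6 and Sftpd at 299 ± 29.1 CPM per kb. The remaining genes ran from Lamp3 at 159.7 ± 4.70 to Etv5 at 35.5 ± 4.90 CPM per kb. The WT ranges of neighbours in this order did not overlap. In the KO mice the means were in the same order, from 10563 ± 1398 CPM per kb for Sftpc to 34.4 ± 1.42 for Etv5.

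Mice of the same genotype differed among themselves in these genes. Averaged over the 10 genes, log2 CPM relative to each gene's own mean was 0.13, 0.03 and 0.03 in WT4, WT5 and WT6 and 0.07, -0.22 and -0.04 in KO4, KO5 and KO6. KO4 was therefore within the WT range, KO6 just below it, and KO5 stood below all others. KO5 was the lowest mouse for 6 genes (the 4 surfactant proteins, Lamp3 and Slc34a2), WT6 for 3 (Abca3, Lpcat1 and Etv5) and KO6 for Napsa. The summed level of the 10 genes was 22407 to 24812 CPM in WT, and in KO it was 96.1% of the WT mean in KO4, 75.4% in KO5 and 89.3% in KO6. Without KO5 the median log2 fold change of the 10 genes was -0.05.

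Other genes were compared with this average pattern by the root mean square difference of their centred log2 CPM over the 6 mice, and 2131 genes lay within 0.1. The closest were Il17rc (0.0196), B3galt6 (0.0220), Serpine2 (0.0240), Myo5b (0.0267) and Mapre3 (0.0297). Their adjusted p-values for KO against WT ran from 0.241 for Mapre3 to 0.498 for Myo5b by edgeR.

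Counts were also set relative to Sftpc within the same mouse, which needs no scaling between libraries. Abca3 had 35.2, 40.8 and 28.2 counts per 1000 Sftpc counts in WT, against 43.3, 46.3 and 42.7 in KO. Lpcat1 had 29.6, 31.8 and 23.1 in WT, against 32.8, 35.0 and 33.2 in KO. For both genes every KO mouse was above every WT mouse, and WT6 was the lowest. The difference of the log2 ratio, KO minus WT, was 0.36 for Abca3 and 0.27 for Lpcat1 (exact permutation p = 0.1 each, 0.3 after adjustment over the 9 ratios), and it was 0.218 and 0.133 without WT6. These were 2 of 9 ratios higher in KO without overlap, a share below the 29.2% of all other tested genes whose ratio to Sftpc was. Relative to Sftpb in place of Sftpc, both genes again lay higher in every KO mouse, by 0.27 for Abca3 and 0.18 for Lpcat1 on the log2 scale (exact permutation p = 0.1 each, 0.3 after adjustment). Of all other tested genes, 21.7% lay higher against Sftpb without overlap and 2.62% lower. Sftpd lay lower against Sftpb in every KO mouse, with a difference in log2 ratio of -0.27 (exact permutation p = 0.1, 0.3 after adjustment).

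Sftpd was the 1 gene of 9 that was lower against Sftpc without overlap, as were 1.22% of all other tested genes. It had 53.5, 57.3 and 58.2 counts per 1000 Sftpc counts in WT and 51.3, 48.1 and 50.3 in KO, a difference in log2 ratio of -0.17 (exact permutation p = 0.1, adjusted 0.3). Sftpa1 had 270.1, 279 and 259 counts per 1000 in WT and 250.1, 282 and 264 in KO, a difference of -0.02 with overlapping groups (exact permutation p = 0.8, adjusted 0.8). The other 5 ratios (Sftpb, Lamp3, Napsa, Slc34a2 and Etv5) differed by 0.09 to 0.20 with overlapping groups. No ratio had an adjusted p below 0.3, and 3 mice against 3 allow no unadjusted p below 0.1.

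**Figure D3:**
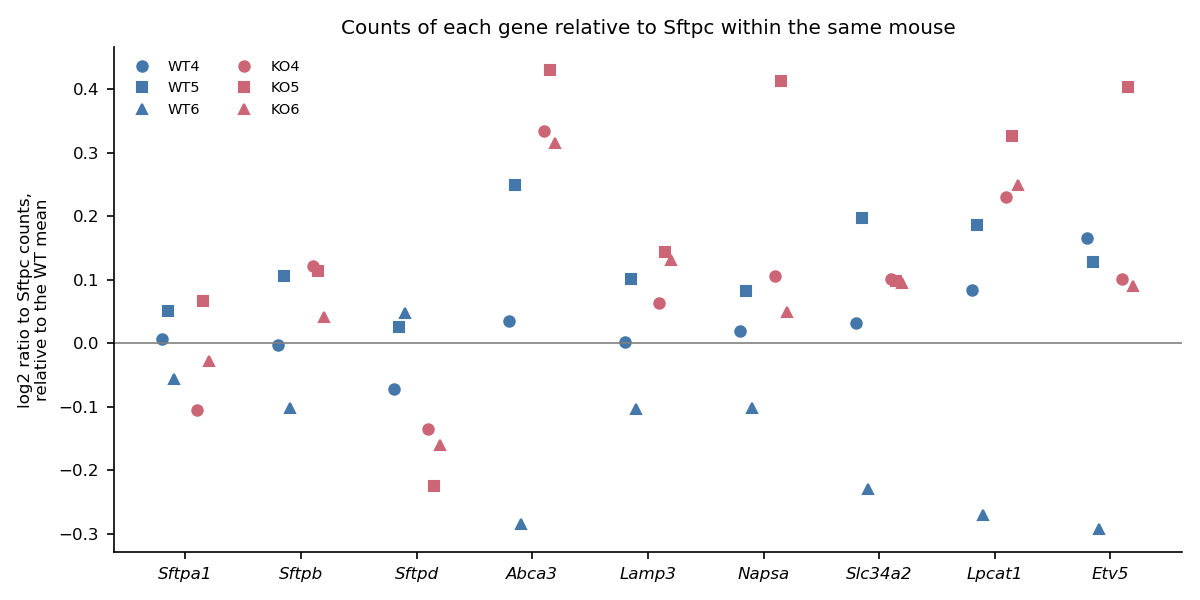
Log2 ratio of the counts of each gene to the Sftpc counts of the same mouse, plotted relative to the WT mean of that ratio. The 3 KO mice lie above all WT mice for Abca3 and Lpcat1 and below them for Sftpd, and the groups overlap for the other 6 genes.

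Genes of surfactant lipid synthesis (the choline pathway, fatty acid synthesis and their sterol regulators) had a median log2 fold change of -0.06. Of 26 genes, all tested, 18 had a lower and 8 a higher point estimate, and 0 were called by edgeR. At an unadjusted p of 0.05 or less, 2 of the 26 were lower in KO and 0 higher, against 11.6% and 13.9% of all genes. The 3 most abundant were Scd1 and Scd2, desaturases that make monounsaturated fatty acids, and Pltp, which transfers phospholipid between lipoproteins. Scd1 was at 1331 ± 383 CPM in WT and 1291 ± 263 CPM in KO (log2 fold change -0.04, adjusted p = 0.931). Scd2 had a log2 fold change of -0.09 (adjusted p = 0.593) and Pltp one of 0.09 (adjusted p = 0.582), both by edgeR.

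Among 18 genes of surfactant processing, uptake and clearance, 8 were lower and 10 higher by point estimate (median log2 fold change 0.03), and 1 was called higher, where 3.72% of all genes tested were. This was Csf2rb, the shared beta chain of the GM-CSF receptor, through which alveolar macrophages are driven to clear surfactant. The neutrophil and monocyte lists also held higher calls (3 of 6 and 8 of 10 tested genes). Which cells of the whole lung gave the Csf2rb counts was not tested. Csf2rb was at 46.9, 35.7 and 35.0 CPM in WT and rose to 55.6, 73.5 and 68.4 CPM in KO. The groups did not overlap and the log2 fold change was 0.75 (SE 0.143, adjusted p = 0.0322 by edgeR). The call was lost without WT5 (adjusted p = 0.142), WT6 (0.105), KO5 (0.0507) or KO6 (0.0863) and with the replicate number as a block (0.102). The alpha chain Csf2ra and the peroxiredoxin and phospholipase Prdx6, both named after their values were seen, had log2 fold changes of 0.48 (adjusted p = 0.0533) and -0.32 (adjusted p = 0.0620) by edgeR. Csf2ra passed 0.05 in 5 of 14 alternative fits (adjusted p = 0.00254 by DESeq2), and Prdx6 by DESeq2 only (adjusted p = 0.00143).

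FGF signalling and a set of transcription factors maintain type 2 cells, and 19 of the 20 genes of this list had a point estimate below 0, with a median log2 fold change of -0.22. None was called by edgeR. At an unadjusted p of 0.05 or less, 10 of the 20 were lower in KO against 11.6% of all genes, and in 11 of the 20 every KO mouse was below every WT mouse against 15.6%. Nkx2-1, a factor known to bind surfactant gene promoters, was at 221, 221 and 209.7 CPM in WT4, WT5 and WT6 and at 191, 162 and 178 CPM in KO4, KO5 and KO6. Its log2 fold change was -0.30 (SE 0.0702, 95% interval -0.46 to -0.13) with an adjusted p of 0.0519 by edgeR, and it passed 0.05 in 4 of 14 alternative fits. Fgfr2, the receptor for FGF7 and FGF10 on epithelium, had a log2 fold change of 0.09 (adjusted p = 0.593), and Cebpa, a factor of type 2 cell maturation, one of -0.01 (adjusted p = 0.921).

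Foxa2, Dusp6, Spry2 and Fgf10 are named here after their values were seen. Foxa2, a factor of lung epithelium, was at 46.9 ± 0.652 CPM in WT and 38.6 ± 4.33 CPM in KO (log2 fold change -0.28, adjusted p = 0.0939 by edgeR). Dusp6 and Spry2, which are induced by FGF signalling and dampen it, had log2 fold changes of -0.27 (adjusted p = 0.0829) and -0.22 (adjusted p = 0.0807). The stromal ligand Fgf10 had one of -0.33 (adjusted p = 0.115). In each of these 4 genes, which are among the 11 of 20 in the list, the KO mice were all below the WT mice, against 15.6% of all genes. In none was the adjusted p at or below 0.05 by edgeR, while DESeq2 gave Dusp6 an adjusted p of 0.0274.

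**Figure D4:**
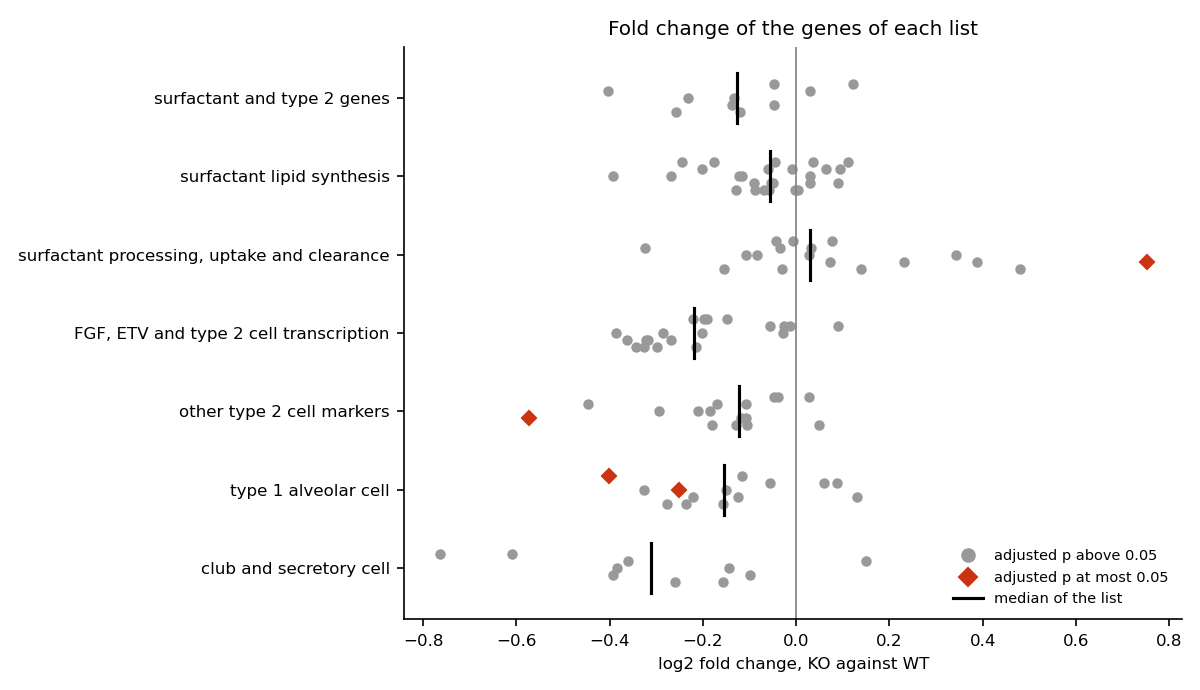
Log2 fold change, KO against WT, of every tested gene in the set of 10 genes and in 6 further lists, with diamonds for adjusted p-values of at most 0.05 by edgeR and a bar for the median of each list. The medians run from -0.31 in the club and secretory cell list to 0.03 in surfactant processing, uptake and clearance, and 4 genes pass the threshold, 3 of them lower in KO.

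Other markers of type 2 cells had a median log2 fold change of -0.12, beside -0.13 for the 10 genes. Such a median was not particular to type 2 cells, with -0.13 in the endothelial, -0.15 in the stromal and -0.19 in the ciliated list. Medians of the immune cell lists were above 0, from 0.23 in alveolar macrophages to 1.94 in B cells. Of the 16 other type 2 markers, 14 had a lower and 2 a higher point estimate, and 1 was called lower, where 2.67% of all genes were. Kcnj15, an inwardly rectifying potassium channel, fell from 131, 142 and 142 CPM in the WT mice to 96.5, 84.9 and 98.2 CPM in the KO mice. All KO mice were below all WT mice, and the log2 fold change was -0.57 (SE 0.0704, adjusted p = 0.0133 by edgeR). The call was lost without WT5 (adjusted p = 0.0807) or WT6 (0.0645) and with the replicate number as a block (0.0609), and held in the other 11 of 14 alternative fits. The summed level of these markers was 8513 to 9869 CPM in WT and 7731 to 9355 CPM in KO, with KO5 again the lowest. The largest part of that sum was Lyz2, named after its values were seen, with a WT mean of 4230 CPM. Its log2 fold change was -0.04 (adjusted p = 0.864 by edgeR), so the sum follows Lyz2 more than any other marker of the list. Which cells of the whole lung gave the Lyz2 counts was not tested, so the sum is not read as a level of type 2 cells.

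Of 14 markers of type 1 alveolar cells, the descendants of type 2 cells, 11 were lower by point estimate (median log2 fold change -0.15) and 2 were called lower, where 2.67% of all genes were, of which the junctional protein gene Lmo7 is described here. At an unadjusted p of 0.05 or less, 6 of the 14 were lower against 11.6% of all genes, and 6 were lower without overlap against 15.6%. Lmo7 fell from 773 ± 10.7 CPM in WT to 649 ± 28.2 CPM in KO (log2 fold change -0.25, SE 0.0567, adjusted p = 0.0475 by edgeR). Lmo7 lost its call with any mouse but KO4 left out (adjusted p = 0.0920 to 0.168), with upper-quartile factors (0.0606), with no filter on low counts (0.0553) and with the replicate number as a block (0.118).

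Of 10 markers of club and secretory cells, the secretory cells of the small airways, 9 were lower by point estimate with a median log2 fold change of -0.31, and 0 were called by edgeR, where 2.67% of all genes were called lower. At an unadjusted p of 0.05 or less, 2 of the 10 were lower, against 11.6% of all genes. The club cell secretory protein gene Scgb1a1 was at 27974 ± 4393 CPM in WT and 23352 ± 3491 CPM in KO (log2 fold change -0.26, adjusted p = 0.349). Cyp2f2, a cytochrome P450 of club cells, had a log2 fold change of -0.36 (adjusted p = 0.159), and the secretoglobin Scgb3a2 one of -0.38 (adjusted p = 0.343), both by edgeR. Without KO5 these 3 values were -0.15 for Scgb1a1, -0.23 for Cyp2f2 and -0.16 for Scgb3a2, and without WT6 that of Scgb1a1 was -0.13. DESeq2 called Cyp2f2 lower (adjusted p = 0.0324).

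The 10 genes were then summed per kb and divided, within each mouse, by the sums of 3 epithelial lists. Sftpc made up most of the sum of the 10 genes. Its WT mean was 12414 CPM per kb, where the WT sums were 15045 to 17321.5 CPM per kb. Scgb1a1 made up most of the club and secretory CPM, with a WT mean of 27974 where the WT sums were 28972 to 37856.5. The log2 ratio to type 1 markers was 2.83 ± 0.105 in WT and 2.76 ± 0.137 in KO (SD, n = 3 each), a difference of -0.07 with an exact permutation p of 0.6. Against club and secretory markers the difference was 0.04 (exact permutation p = 0.8), and against pan-epithelial genes such as Epcam and Cdh1 it was 0.06 (exact permutation p = 0.4). After adjustment over the 3 ratios each p was 0.8, and the groups overlapped in all 3. The difference against type 1 markers was 0.00403 without KO5, and that against club markers was -0.04 without WT6.

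Markers of some blood and immune cell types in these whole-lung samples moved with genotype, and fewer cells of a type and less RNA per cell cannot be told apart in them. Of 10 pan-epithelial genes, all 10 had a point estimate below 0 (median log2 fold change -0.20), and 0 were called by edgeR, against 2.67% of all genes called lower. At an unadjusted p of 0.05 or less, 3 of these 10 were lower against 11.6%, and 4 were lower without overlap against 15.6%. Their summed level was 1069 to 1210.4 CPM in WT and 823 to 1050.2 CPM in KO, lowest in KO5. All 8 markers of B cells had groups that did not overlap, higher in KO (median log2 fold change 1.94), where 17% of all genes did so, and 0 were called, with 8 higher at an unadjusted p of 0.05 or less against 13.9%. Summed B cell markers were at 123 to 145 CPM in WT, 246 CPM in KO4, 283 CPM in KO6 and 1021 CPM in KO5, the mouse in which the surfactant genes were lowest.

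Neutrophil markers also differed, with 3 of 6 tested genes (of 8) called higher by edgeR, where 3.72% of all genes were, and summed levels of 56.9 to 94.8 CPM in WT and 149.98 to 169 CPM in KO. Of 10 monocyte markers, 8 were called higher (median log2 fold change 1.06), while their summed level overlapped between the groups, at 1697 to 1729.8 CPM in WT and 1716 to 2059.5 CPM in KO. Most of that sum was Ace, named after its values were seen, which had a mean of 1448 CPM in WT and a log2 fold change of 0.01 (adjusted p = 0.945 by edgeR). Without Ace the other 9 monocyte markers summed to 220.2 to 299.8 CPM in WT and 363 to 492 CPM in KO, with no overlap. All 5 red blood cell genes were called lower, where 2.67% of all genes were (median log2 fold change -0.89), with summed levels of 2126 to 2277 CPM in WT and 1035 to 1411 CPM in KO. Of 10 alveolar macrophage markers, 1 was called higher against 3.72% of all genes, and of 11 endothelial markers 1 was called lower against 2.67%, and both are named after their values were seen. Marco, a scavenger receptor of macrophages, rose from 11.2, 8.67 and 9.77 CPM in WT to 24.6, 21.7 and 24.8 CPM in KO (log2 fold change 1.26, SE 0.114, adjusted p = 0.00665 by edgeR), a call lost without WT5 (0.0557). Cldn5, a tight junction protein of endothelium, fell from 370 ± 11.9 CPM in WT to 298 ± 17.8 CPM in KO (SD, n = 3 each; log2 fold change -0.31, SE 0.062, adjusted p = 0.0362 by edgeR). The call of Cldn5 was lost with any 1 mouse left out (adjusted p = 0.0528 to 0.138) and with the replicate number as a block (0.0949).

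Immediate early and other genes that handling of tissue can induce summed to 525 to 1296 CPM in WT, highest in WT6, and to 432 to 687 CPM in KO. All 10 had a point estimate below 0, and 0 were called by edgeR, against 2.67% of all genes called lower. At an unadjusted p of 0.05 or less, 4 of these 10 were lower in KO against 11.6% of all genes. What induced them was not tested. No marker of any list was at 0 in all 6 mice. The part of these differences in the levels of the 10 surfactant and type 2 alveolar genes was not tested.

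**Figure D5:**
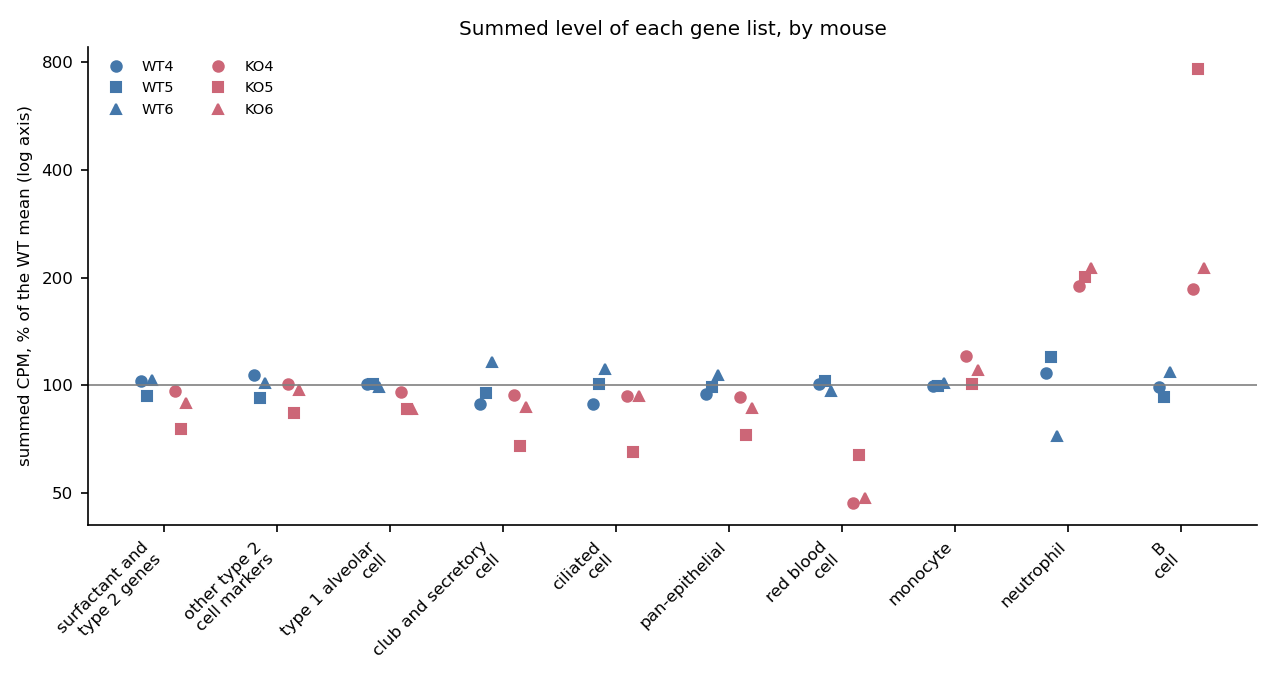
Summed CPM of the 10 surfactant and type 2 alveolar genes and of 9 cell type marker lists in each mouse, as a percentage of the WT mean on a log axis. In KO5 the 10 genes are at 75.4% and the pan-epithelial genes at 72.7% of their WT means while the B cell markers are at 768%, and in KO4 the 10 genes are at 96.1%. Most of the plotted monocyte sum is the gene Ace.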

How the data were processed

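Stranded TruSeq mRNA libraries were made from RNA extracted with Trizol and RNeasy, 1 per lung. The submitters' processing notes name Trimmomatic 0.36, STAR 2.5.3a, Picard 2.9.0 and HTSeq 0.6.0 with the GRCm38 build, and the study ran them inside GenPipes. The authors deposited whole counts per Ensembl gene without normalization, and the annotation release and strand setting are not given in the sources used here. Intervals and p-values cover these 6 mice, and the floor of 3 counts covers counting error only.

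Groups followed the genotype labels. KO was tested against WT in R 4.3.3 with edgeR 4.0.16 (glmQLFit and glmQLFTest), TMM scaling, Benjamini-Hochberg adjustment over the 17037 genes that filterByExpr kept (minimum count 10, total 15), with all 6 libraries and no covariate. The SE is the size of the log2 fold change divided by the root of F. Ratios used counts plus 0.5 and two-sided exact permutation tests. DESeq2 1.42.0, limma 3.58.1 (voom), other scalings and filters, a replicate block and leaving out each mouse were alternatives. The fits were tested on 3 simulated sets with the spread that edgeR estimated. Each set had 200 genes changed by an absolute log2 fold change of 2. Of the calls at an adjusted p of at most 0.05, 5.88% were false by edgeR, 5.75% by limma voom and 10.8% by DESeq2. In the same order, 98.6%, 98.3% and 91% of the changed genes were recovered. Smaller changes were not simulated, so these shares do not show how often changes as small as those of the surfactant and type 2 genes would be found. Positions and exon lengths came from GENCODE mouse release 21, which placed 46488 of the 47069 genes, and promoters from RefSeq. Tables were made with pandas 2.3.3, SciPy 1.17.1 and NumPy 2.4.6 in Python 3.11.15, and figures with Matplotlib 3.10.9.

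The 10 genes and the lists were chosen with earlier results of these data known. Named in the text were the 10 genes, Zpbp2, the called genes of the 6 further lists or otherwise the 3 with the highest mean CPM, and the 5 genes nearest to the average pattern. Of the called genes, 1 in the type 1 list is not reported here. Genes outside this rule are marked in the text, and Xist, the Y chromosome genes, Epcam and Cdh1 serve as checks or examples. Elf3 is in both the FGF and the pan-epithelial list. Markers of ciliated, endothelial, stromal and T cells and of alveolar macrophages were also summed, and their median log2 fold changes were -0.19, -0.13, -0.15, 0.82 and 0.23. The monocyte sum without Ace was added after seeing the data.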

Additional observations from a re-analysis of the deposited data

How the results depend on the processing

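None of the 10 genes was called in 13 of the 14 alternative fits, and DESeq2 called 2 lower. Their median log2 fold change stayed between -0.20 and -0.05. In the 6 further lists the main test called 3 genes lower and 1 higher. Lower calls numbered 6 with no filter and 14 by DESeq2, and 0 to 10 with 1 mouse left out (10 without KO4, 0 without WT5). Higher calls numbered 2 with upper-quartile factors, with no filter, with at least 10 counts in every library and by DESeq2, and 0 to 2 with 1 mouse left out. The causes were not tested.

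Same-numbered WT and KO mice did not deviate together (correlations of -0.0316, -0.154 and -0.0210), so the numbers were not taken as pairs. With the replicate block the further lists had 0 lower and 0 higher calls, no gene of the 10 was called, and the 3 within-number differences had the same sign in 6 of the 9 ratios to Sftpc. With 1 mouse left out, 3 to 7 of these ratios had groups that did not overlap (7 without WT5 and 5 without KO6, where fewer mice are compared).

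Directions turned with 1 mouse left out for Etv5 (-0.14 to 0.0605), Lpcat1 (-0.0506 to 0.10), Scd1 (-0.18 to 0.21), Pltp (-0.0198 to 0.15), Cebpa (-0.0514 to 0.0283), and the ratios of Sftpa1 (-0.0661 to 0.0192) and Slc34a2 (-0.0170 to 0.20) to Sftpc. As a mean of log2 counts per length, the difference in the ratio to type 1 markers was 0.0239 and that to club markers 0.45. On this scale the log2 ratio to club markers was 2.67 in KO5, 0.95 in KO4 and 0.62 in KO6, and 0.44 to 1.57 in WT. The summed ratios gave -0.07 and 0.04. With 1 mouse left out the differences of the summed ratios spanned -0.13 to 0.00403 and -0.0391 to 0.14. Each of the 10 genes had at least 2756 counts in every library.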
